A study of Drosophila melanogaster with 4 samples.

Results

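The wildtype transcriptome of larvae in the third instar of *Drosophila melanogaster*, the last larval stage before the animal pupates, was described from the 2 libraries labelled wildtype (Oregon R, a common laboratory strain) of the 4 libraries of the study. The other libraries are of larvae lacking HP1a, made to find how that heterochromatin protein acts on chromosome 4, and were not compared here. The Oregon R stock was kept on cornmeal food at 25°C and 70% humidity. RNA was taken from larvae with Trizol, ribosomal RNA was depleted, and the cDNA was sequenced on an Illumina instrument. The sources used here do not give the sex of the larvae, the hour within the instar or the number of larvae in a library. Nothing in them says that the 2 libraries came from separate collections of larvae, so a difference between the libraries may be technical. The members are the genes with at least 1 transcript whose Cufflinks estimate had the status OK in both libraries, 13071 of the 13568 genes listed. Of these, 12737 were protein-coding and 334 noncoding.

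In the third instar a larva feeds, grows and then wanders off the food to pupariate. At that time the salivary gland fills with glue proteins that fix the pupal case to a surface, the fat body secretes storage proteins into the hemolymph, the epidermis carries a soft larval cuticle, and the imaginal discs that will form the adult divide. Pulses of the steroid hormone ecdysone from the ring gland time these steps. RNA of whole larvae mixes these tissues, so that fewer cells of a type and less RNA per cell cannot be told apart in any value given here.

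Abundance is given as FPKM, fragments scaled to transcript length and to library size, summed over the transcripts of a gene. FPKM is a level per length, and it weights very short transcripts heavily. The values of replicates 1 and 2 are given in that order. A gene was counted as expressed where log2(FPKM + 1), averaged over the 2 libraries, was above 1.4, which corresponds to an FPKM of 1.64. The upper bounds that Cufflinks gave imply 7505528 and 7656033 fragments on transcripts. The median protein-coding gene had 103 and 113 implied fragments, and the 1005 protein-coding genes with a mean FPKM between 1 and 2.5 had a median of 19.9 and 21.0. A level near the cutoff therefore rested on few fragments, and the counting error of a low gene was large. Transcripts with no gene in the reference were left out of the sums. They lay over the loci of 25 of 1163 list members and named genes, counting transcripts more than 30% within the locus that were above the cutoff and above 10% of the gene's FPKM. Of these genes, *Eip78C* (0.134 and 0.0789 FPKM, against 52.5 and 38.7 of the transcript without a gene) and *Rh4* (0.176 and 0.461, against 2.64 and 3.71) were counted as not expressed, so that their low values may not be the level of the locus.

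Of the protein-coding genes, 9975 (78.3%) were expressed. The libraries counted 9924 and 10028 when each was taken alone. The number of expressed members in each protein-coding list below is to be read against the share of 78.3%. The median protein-coding gene had an FPKM of 8.39 and 9.13. At the upper end, 762 genes had a mean above 100, 128 were above 1000 and 5 were above 10000. At the lower end, 566 protein-coding genes were listed at 0 in both libraries.

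Much of the protein-coding FPKM came from few genes. The highest gene alone held 3.90% and 4.14% of the summed protein-coding FPKM, the 10 highest held 15.3% and 15.2%, the 100 highest 47.1% and 46.5%, and the 1000 highest 78.4% and 77.9%. The ranking of the top was nearly the same in both libraries, with 97 genes shared between their own lists of the 100 highest. FPKM is scaled to length, so that a short transcript reaches the same value from fewer fragments than a long one. Counted in implied fragments, the same 100 genes held 27.3% and 26.6%, since many of them are short.

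**Figure D1:**
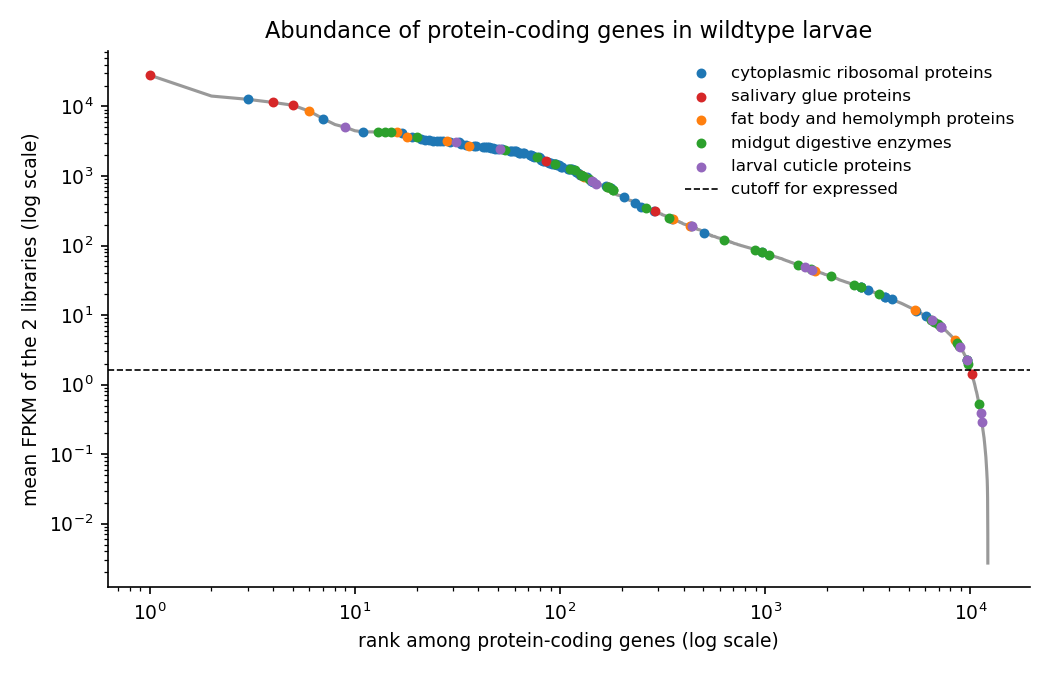
Mean FPKM of the 2 wildtype libraries (y axis, log scale) against the rank of each protein-coding gene (x axis, log scale), with the members of 5 gene lists coloured and the cutoff for expressed genes dashed. The glue gene *Sgs7* is at rank 1 with a mean of 28196, and ribosomal protein genes crowd the ranks between about 10 and 100.

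The 5 most abundant protein-coding genes were 3 salivary glue genes, an odorant-binding protein gene and a ribosomal protein gene. *Sgs7* (3L, Release 5, 11502961 to 11503347), which encodes a small glue protein, had 27082 and 29310 FPKM, a mean of 28196 ± 1576 (SD, n = 2). *Obp99b* (3R, 25541974 to 25542532), a secreted protein of the odorant-binding family, had 14523 and 13695. *RpL41* (2R, 20790940 to 20791452), the smallest protein of the large ribosomal subunit, had 12788 and 12546. *Sgs8* had 11759 and 11075, and *Sgs5* had 9680 and 11130, so that the order of these last genes differed between the libraries. Next came *Lsp2*, *RpL39*, the translation elongation factor *eEF1alpha1* (5478 and 5509 FPKM) and the larval cuticle gene *Lcp4*. None of the 30 highest protein-coding genes, and none of the 100 highest, differed by more than 1.5-fold between the libraries (0 of 100).

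Of the 100 highest protein-coding genes, 82 belonged to a gene list. The largest group was cytoplasmic ribosomal proteins, with 55 genes, followed by digestive enzymes with 7, fat body proteins with 5, glue proteins with 4 and larval cuticle proteins with 3. Within the 30 highest, the genes in no list were *Obp99b*, *CG30031*, *CG34166* and *Peritrophin-15a*. *CG30031* (3597 and 5349 FPKM) has 1 transcript listed at 3 loci of 2R beside the trypsin gene *deltaTry*, and its value is the sum over these near-identical copies, among which fragments cannot be placed with certainty. *CG34166* had 3707 and 4901 FPKM. *Peritrophin-15a*, a protein of the chitinous matrix that lines the gut, had 3078 and 3132. Other abundant genes outside the lists, chosen after their values were seen, were *Peritrophin-15b* (1817 and 1919), *yip7*, a serine protease gene (1924 and 2534), *sta*, which encodes a protein of the small ribosomal subunit (2226 and 2054), and *PGRP-SC2*, a peptidoglycan recognition protein (1172 and 1292).

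**Figure D2:**
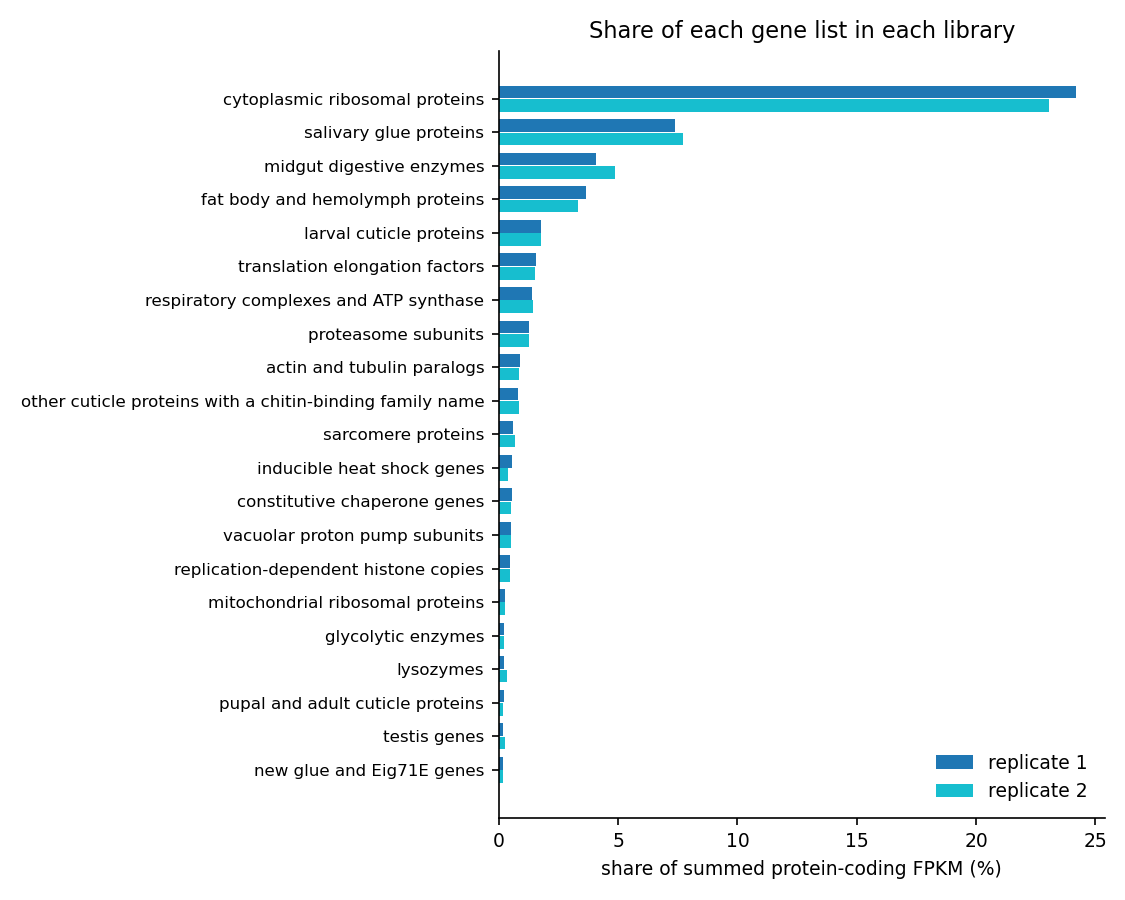
Share of the summed protein-coding FPKM (x axis, percent) held by each gene list in wildtype replicate 1 and replicate 2, for the lists above 0.15% in replicate 1. Ribosomal proteins held 24.2% and 23.1%, glue proteins 7.40% and 7.72%, and the bars of the 2 libraries are close for most lists.

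By FPKM, the glue genes held the largest share among the tissue lists. Of the 7 glue genes, which are made only by the larval salivary gland late in the instar, 6 were expressed. Together they held 7.40% and 7.72% of the protein-coding FPKM. They covered a wide range. *Sgs5bis* had 1730 and 1537 FPKM, *Sgs4* 857 and 1239, and *Sgs3* 256 and 370. *Sgs3*, *Sgs7* and *Sgs8* lie together on 3L within 11502067 to 11506503, yet the FPKM of *Sgs7* was 106 and 79.3 times that of *Sgs3*. *Sgs1*, a large glue protein with many repeats, was under the cutoff at 1.12 and 1.73, with 34 and 54 implied fragments. How repeated sequence bore on the levels of the glue genes was not tested. In implied fragments, the glue genes held 1.64% and 1.81% of the protein-coding total.

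The fat body was represented by 12 of 12 expressed genes, with 3.66% and 3.30% of the protein-coding FPKM and 8.12% and 7.34% of the fragments. The larval serum proteins, hexamers that the fat body secretes and later takes up again as a store for metamorphosis, led the list. *Lsp2* had 9321 and 7758 FPKM (mean 8540 ± 1105, SD, n = 2), from 159297 and 135845 implied fragments. *Lsp1beta* had 2945 and 3343, *Lsp1gamma* 2901 and 2538, and *Lsp1alpha* 1088 and 853. The subunits thus differed in level, and *Lsp1beta* was 2.71 and 3.92 times *Lsp1alpha*. *Fbp1*, the receptor through which the serum proteins return to the fat body, had 4333 and 4127 FPKM, and *Fbp2* had 3658 and 3537. The lipid carriers were lower, with *apolpp* at 259 and 219 and *Apoltp* lowest in the list at 4.16 and 4.69. None of the 12 genes differed by more than 1.5-fold between the libraries.

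Cuticle genes separated by stage. Of the 15 larval cuticle genes, 12 were expressed, and their 1.78% of the protein-coding FPKM was equal in both libraries to 3 digits. The 12 include the 3 *Lcp65Ag* copies, which summed to 0.372 and 33.8 FPKM and so passed the averaged cutoff through replicate 2 alone. *Lcp4* had 5041 and 5000 FPKM, *Lcp65Ab1* 3287 and 2859 (its transcript is listed at 2 loci), *Lcp1* 2237 and 2706, and *Lcp3* 732 and 948. *Lcp65Af* was the lowest at 0 and 0.58. Of the 13 pupal and adult cuticle genes, 2 were expressed, and *Edg84A*, *Ccp84Ad* and *Ccp84Ae* were listed at 0 in both libraries. The exception in level was *Pcp*, named for the pupal cuticle, at 1337 and 1269. Its locus lies within that of *Gart* (99.8 and 92.8 FPKM), an enzyme of purine synthesis, and whether fragments were assigned by strand is not given in the sources used. *Edg91* had 5.79 and 2.62. Among 94 other genes with a cuticle family name, 35 were expressed and 19 were listed at 0 in both libraries. *Cpr78E* (2470 and 2832), *Cpr49Ac* (1332 and 1398) and *Cpr57A* (842 and 808) were the highest.

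Midgut genes were broadly expressed. Of 37 digestive enzyme genes, 36 were expressed, with a median of 122 FPKM against 8.74 over all protein-coding genes, and they held 4.07% and 4.86% of the protein-coding FPKM. The Jonah genes, serine proteases of the chymotrypsin kind, were all expressed (16 of 16) and together held 3.43% and 3.98%. *Jon99Ciii* had 3914 and 4691 FPKM, *Jon66Ci* 3820 and 4672, *Jon65Aiv* 3699 and 4789, and *Jon99Cii* 3332 and 3841. *Jon74E* was the lowest Jonah gene at 1.80 and 2.19, but a transcript with no gene over its locus had 100.006 and 171 FPKM. The 10 trypsins named by a Greek letter summed to 3550 and 5344, so that they were 1.51 times higher in replicate 2. *gammaTry* matched no transcript, and *CG30031* (3597 and 5349), which lies beside *deltaTry*, is in neither this sum nor the list. Carbohydrate digestion was at lower levels: the 8 maltase genes *Mal-A1* to *Mal-A8*, of which the list holds 7, summed to 192 and 168 FPKM, and the 3 amylase genes to 150 and 186. *Mal-A7* was under the cutoff at 0.462 and 0.601.

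Among 6 lysozyme genes, which in flies serve digestion in the gut, *LysS* was the highest at 688 and 716 FPKM. *LysB* had 270 and 701, *LysD* 217 and 535, and *LysE* 143 and 391. A transcript with no gene over the locus of *LysD* had a further 206 and 575. These last genes differed between the libraries by more than the fold of 1.5, and are taken up with the replicates. *LysX* was lower in replicate 2, at 26.2 and 16.0, and *LysP* had 16.8 and 18.9.

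**Figure D3:**
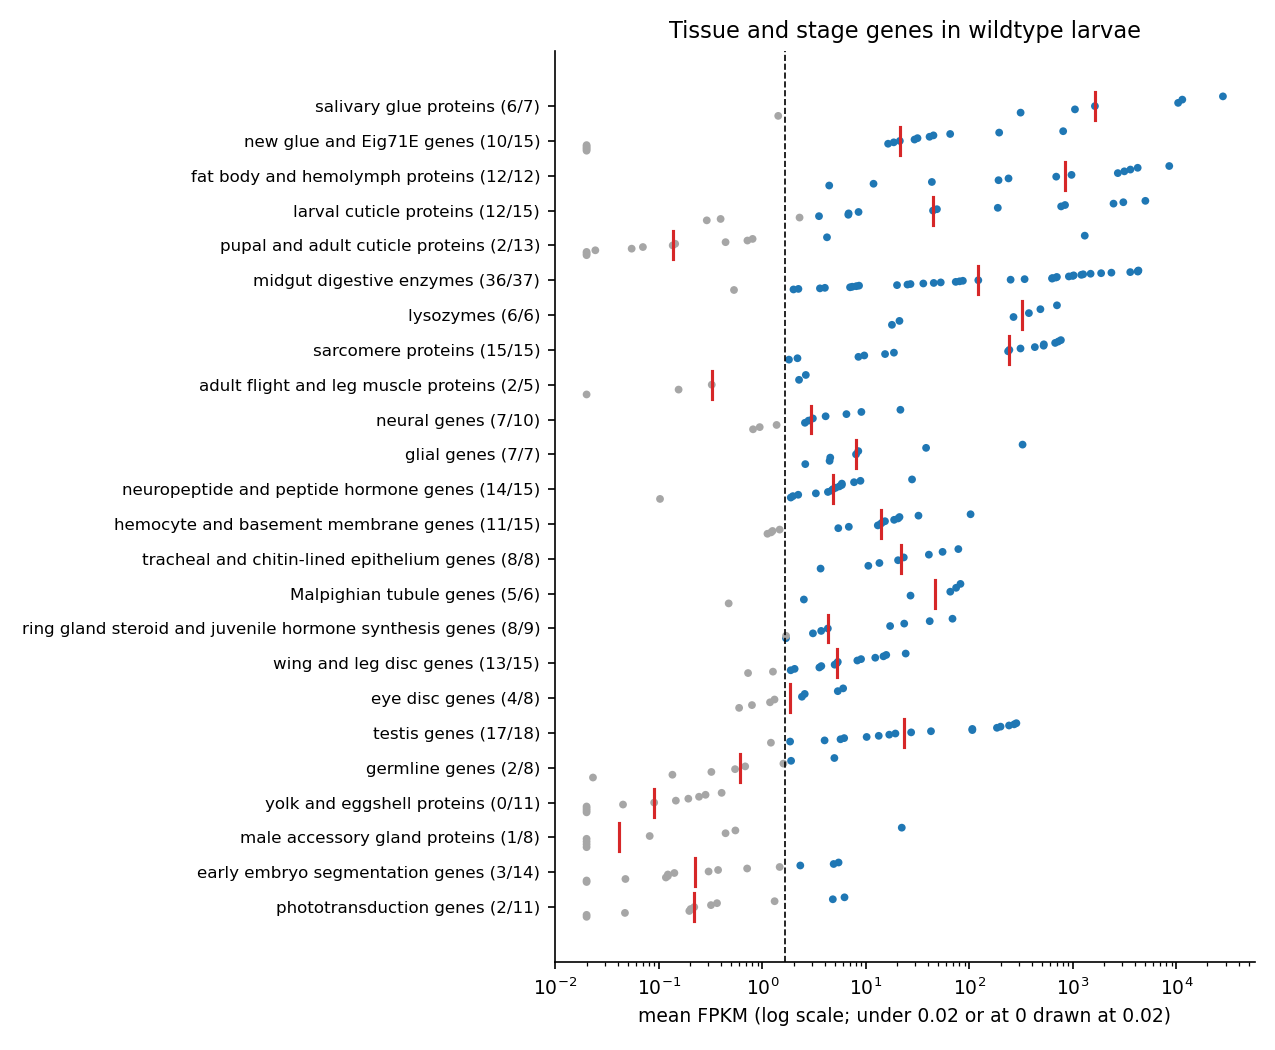
Mean FPKM of the 2 wildtype libraries (x axis, log scale) for each member of 24 tissue and stage lists (rows), with the number expressed of the number measured in brackets. Blue points are expressed, grey points are not, red bars are list medians and the dashed line is the cutoff, which was applied to the mean of the logarithms, so that *Lcp65Ae* (0 and 4.57 FPKM) is grey to its right. Glue, fat body, midgut and sarcomere lists lie to the right of the cutoff, and the eggshell, accessory gland, pupal and adult cuticle, embryo and phototransduction lists mostly to the left.

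The body wall muscle of the larva was represented by 15 of 15 measured sarcomere genes, with 0.61% and 0.67% of the protein-coding FPKM. *Mlc2*, a myosin light chain, had 747 and 786 FPKM, *Tm1* (tropomyosin) 682 and 764, *Mp20* 659 and 690, and *Act57B*, a larval muscle actin, 483 and 566. *Obsc* (also *Unc-89*) was the lowest at 1.28 and 2.33. The 15 genes were higher in replicate 2 without exception, by a median of 0.23 on the log2 scale, against 0.06 over all expressed genes, of which 61.6% were higher in replicate 2. *Mhc*, the muscle myosin heavy chain, *wupA*, *Prm* and *Zasp66* had a failed estimate. Their listed values, 99.2 and 121 FPKM for *Mhc*, enter no count. Genes of adult flight and leg muscle were low. Of 5, *Act88F* (2.61 and 1.91) and *TpnC41C* (2.17 and 3.08) passed the cutoff, *fln* had 0.157 and 0.153, and *TpnC4* was listed at 0. The FPKM of *Act57B* was 185 and 296 times that of *Act88F*, although actin genes are alike in sequence and fragments may be assigned to the wrong copy.

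The nervous system appeared at low levels. Of 10 neural genes measured, 7 were expressed, with a median of 2.93 FPKM, and the list held 0.00731% and 0.00773% of the protein-coding FPKM. *Syt1*, the calcium sensor of synaptic vesicles, had 22.0 and 21.1 FPKM, *Syx1A* 7.17 and 10.9, and *elav*, the RNA-binding protein found in every neuron, 6.38 and 6.59. *VAChT*, the vesicular carrier of acetylcholine, was the lowest at 0.756 and 0.868. A further 5 genes of the list (*brp*, *para*, *cac*, *Rdl* and *Gad1*) had failed estimates. All 7 glial genes were expressed. *Gs2*, a glutamine synthetase that other tissues also make, had 331 and 322, *nrv2* 38.0 and 38.4, and *repo*, the transcription factor that marks nearly all glia, 2.85 and 2.35.

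Peptide hormone genes were expressed at low levels. Of 15 neuropeptide and peptide hormone genes, 14 were above the cutoff, with a median of 4.80 FPKM. *Ilp6*, an insulin-like peptide of the fat body, had 29.2 and 26.6 FPKM. *ETH*, ecdysis-triggering hormone from the Inka cells of the trachea, had 9.09 and 8.64. The insulin-like peptides of brain neurosecretory cells were near the median of the list, with *Ilp2* at 5.99 and 3.31, *Ilp3* at 5.84 and 4.38 and *Ilp5* at 6.71 and 4.37, from 10 to 26 fragments each. *Ilp8*, a growth signal of the imaginal discs, had 8.63 and 6.73, and *Akh*, made by the corpora cardiaca, 7.39 and 4.33. *Eh*, eclosion hormone, was the lowest at 0 and 0.205. In the ring gland list 8 of 9 genes were expressed. The ecdysteroid enzymes *sro* (67.3 and 70.1), *sad* (23.2 and 23.7) and *spok* (16.7 and 17.6) were measured alongside *shd* (41.5 and 41.3), which turns ecdysone into its active form in peripheral tissues. *jhamt*, an enzyme of juvenile hormone synthesis, was at 1.86 and 1.52.

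Blood cells, trachea and tubules each had expressed markers. Of 15 hemocyte and basement membrane genes, 11 were expressed. *SPARC*, a collagen-binding matrix protein, had 105 and 101 FPKM, *Pxn* 31.9 and 32.6, *Hml* (hemolectin) 19.6 and 22.7, and *NimC1*, a phagocytosis receptor, 21.6 and 19.3. The crystal cell genes were under the cutoff, with *PPO1* at 1.61 and 0.897, *PPO2* at 1.95 and 0.982, and *lz*, the lowest in the list, at 1.10 and 1.14. All 8 tracheal and chitin epithelium genes were expressed, from *pio* (78.6 and 77.9), *Gasp* (51.7 and 58.5), *serp* (37.7 and 43.5) and *rtv* (25.1 and 21.3) down to *trh* (3.63 and 3.67). In the Malpighian tubule, the kidney of the fly, 5 of 6 genes were expressed. *Alp4* had 87.9 and 76.2, the water channel *Drip* 72.9 and 76.0, the potassium channel *Irk1* 65.9 and 64.9, and *Uro*, urate oxidase, 25.5 and 28.4. *CapaR*, a peptide receptor, had 0.478 and 0.466.

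Imaginal disc regulators were expressed at low levels. Of 15 wing and leg disc genes, 13 were above the cutoff, with a median of 5.23 FPKM. *sd*, the partner of Yorkie and Vestigial, had 24.1 and 24.4 FPKM, *ci*, the effector of Hedgehog signalling and a gene of chromosome 4, 16.5 and 15.0, and *ap*, which marks the dorsal wing compartment, 11.3 and 13.3. *hth*, which patterns the proximal parts of appendages, had 11.3 and 18.2, the only one of the 13 expressed genes past 1.5-fold between the libraries. With 3 transcripts without a gene over its locus, its sum was 23.2 and 19.3. *rn* was the lowest at 0.70 and 0.753. Of 8 eye disc genes measured, 4 were expressed. The estimate of *dac* (listed at 7.24 and 6.47) failed and enters no count. *toy*, a Pax6 gene of chromosome 4, had 5.52 and 6.53 and *eya* 4.84 and 5.86, while *ey*, the other Pax6 gene, was under the cutoff at 1.32 and 1.29 and *ro* was lowest at 0.603 and 0.588. Among the Hox genes, which set segment identity, *abd-A* had 9.49 and 8.47, *Abd-B* 3.86 and 4.39, *Scr* 1.52 and 2.08, and *lab*, the lowest of the 5 measured, 0.429 and 0.418. The estimates of *Antp* (4.96 and 5.31), *Ubx* (3.86 and 3.55) and *pb* (0.385 and 0.478) failed, and enter no count.

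Genes of cell division were expressed in full. All 18 DNA replication genes measured were above the cutoff, at a median of 12.4 FPKM. *PCNA*, the sliding clamp, had 69.1 and 70.9, *RnrS*, a ribonucleotide reductase subunit, 33.0 and 35.4, and *Orc1*, the lowest, 2.49 and 2.74. All 12 mitosis genes were above it as well, at a median of 12.3, led by *polo* (43.1 and 43.5), *Cdk1* (35.1 and 33.1), *CycA* (22.8 and 30.2) and *CycB* (18.9 and 20.8). *cid*, the centromeric histone H3, was the lowest at 3.86 and 4.20. The replication-dependent histone genes, of which 36 of 38 were expressed, are near-identical copies, so that no copy is described.

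Testis genes were expressed, and genes of yolk and eggshell were not. Of 18 testis genes, 17 were above the cutoff. *Mst84Db*, a gene of late spermatogenesis, had 255 and 314 FPKM, *Mst87F* 248 and 294, *Mst84Dc* 205 and 279, and *Mst84Da* 144 and 257. *can*, a meiotic arrest gene, was under the cutoff at 0.804 and 1.61. *betaTub85D*, the testis tubulin, had 95.0 and 119. Of the 17 expressed genes, 16 were higher in replicate 2, against 61.6% of all expressed genes. Of 8 germline genes, 2 were expressed, *orb* at 3.84 and 6.08 and *bgcn* at 1.93 and 1.85, and the germ cell marker *vas* was at 0.354 and 0.288. None of 11 yolk and eggshell genes passed the cutoff, and *Cp16*, *Cp19*, *Cp36* and *Vm26Aa* were listed at 0 in both libraries. *Yp3* was at 0.191 and 0.373. Of 8 genes of the adult male accessory gland, 1 passed, *Acp95EF* at 15.8 and 28.6, from 7 and 13 implied fragments.

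RNAs of sex determination and dosage compensation were present. The 12 sex determination and dosage compensation genes were all expressed. *roX2* had 416 and 481 FPKM and *roX1* 123 and 153, and both are noncoding RNAs of the male dosage compensation complex, of which *roX2* was 3.37 and 3.15 times higher. *Sxl*, the switch gene whose protein is made in females and whose transcripts are made in both sexes, had 43.3 and 44.2, and *tra2* 24.8 and 26.1. *msl-3* was the lowest at 1.80 and 2.88, with a transcript without a gene over its locus at 4.99 and 5.31. The share of males in each library was not given, and these levels do not measure it.

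The ecdysone receptor gene and most of the response genes in the list were expressed. Of 20 genes measured, 17 were expressed (85%, against 78.3% of all protein-coding genes), with a median of 14.7 FPKM. *ImpE2*, an ecdysone-inducible gene of imaginal discs, had 219 and 213 FPKM, *MsrA* (also *Eip71CD*) 133 and 133, and *Cth* (also *Eip55E*) 74.6 and 75.3. The early regulator *br*, which directs the larva to pupa switch, had 63.2 and 72.0, and the receptor *EcR* 48.5 and 48.9. *Eip75B* had 22.3 and 27.2 and *Eip74EF* 22.6 and 24.0. With a transcript without a gene over its locus, at 0 and 26.8, the sum for *Eip74EF* was 22.6 and 50.8. Among nuclear receptors and repressors of the response, *Hr39* had 15.1 and 12.9, *Hr4* 5.45 and 4.66, and *Blimp-1* 3.69 and 2.91, while *Hr3* (2.20 and 0.849) and *ftz-f1* (1.17 and 1.85) were under the cutoff, as was the named transcript of *Eip78C*. By their named transcripts, none of the 17 expressed genes was past 1.5-fold between the libraries. In the juvenile hormone list 7 of 8 genes were expressed, led by the epoxide hydrolases *Jheh2* (53.1 and 60.0) and *Jheh3* (54.6 and 53.5), with *Jheh1* at 13.4 and 15.7 and the receptor gene *gce* at 8.61 and 9.12. *Jhe*, the hormone's esterase, was under the cutoff at 0.689 and 0.942.

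By FPKM, the machinery of protein synthesis held the largest share among the lists. Cytoplasmic ribosomal proteins held 24.2% and 23.1% of the protein-coding FPKM, but 10.6% and 10.2% of the implied fragments. The fat body list held 8.12% and 7.34% of the fragments. Of 88 cytoplasmic ribosomal protein genes measured, 87 were expressed, and 65 of them had a mean above 1000. Their median was 1683 FPKM, and the median of SD divided by the mean was 3.13%, against 8.07% over expressed genes. The spread between the libraries fell with the number of fragments, and the 2 sets were not matched for it. After *RpL41* came *RpL39* (7021 and 6317), *RpLP2* (4430 and 4190) and *RpL36A* (4272 and 4005). The exceptions included a set of paralogs, of which *RpS28a* was the lowest at 0 and 4.57, while *RpS28b* had 3281 and 3185. *RpL5* was low as well, at 102 and 58.6. A transcript without a gene over its locus had 2287 and 2150, which enter no value of the list. The 7 elongation factor genes held 1.58% and 1.503%. *eEF1alpha1* was 91.5 and 102 times its paralog *eEF1alpha2* (59.8 and 53.8), and *eEF5* had 2506 and 2208, *eEF2* 1298 and 1269, and *eEF1beta* 986 and 953.

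Mitochondrial, proteasome and proton pump genes were expressed without exception among those measured. The 89 genes of the respiratory complexes and ATP synthase had a median of 70.96 FPKM, and *UQCR-6.4*, a small subunit of complex III, was the highest at 753 and 880. The 72 mitochondrial ribosomal protein genes had a median of 20.5, far under the 1683 of the cytoplasmic ones. The 47 proteasome subunit genes had a median of 214, led by *Prosalpha3* (437 and 441), *Prosalpha6* (418 and 426), *Prosbeta4* (385 and 383) and *Prosalpha5* (353 and 364). The 32 vacuolar proton pump genes had a median of 23.1, with *Vha13* at 611 and 607 and the lowest, *Vha16-4*, at 2.16 and 2.03. In the lists of respiratory, proteasome and proton pump genes the lowest members carried paralog names, such as *COX7AL2* (2.49 and 1.21) and *Prosalpha4T1* (3.31 and 3.71). Of 11 glycolytic enzymes, *Gapdh1* had 523 and 535 FPKM and the named transcripts of its paralog *Gapdh2* 6.14 and 13.2, while a transcript without a gene over the *Gapdh2* locus had 591 and 489. Next were *Tpi* at 273 and 274, *PyK* at 138 and 143 and *Pglym78* at 138 and 134. The estimate of *Eno* (listed at 169 and 140) failed and enters no count. The cytoskeleton was led by *Act5C* (2841 and 2554) and *alphaTub84B* (1527 and 1531).

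Stress and immune genes were uneven. *Hsc70-4*, a chaperone that cells make at all times, had 2109 and 2099 FPKM, and *Hsp83*, the fly Hsp90, 1107 and 922. All 12 inducible heat shock genes were expressed. *Hsp23*, a small heat shock protein that also responds to ecdysone in larvae, had 3067 and 2239, *Hsp26* 400 and 280, *Hsp27* 77.8 and 89.5, and *Hsp22* 115 and 34.4. The 6 *Hsp70* copies, near-identical genes, summed to 45.1 and 21.7, and the lowest was *Hsp70Ba*, at 4.78 and 2.45. Of 14 antimicrobial peptide genes, 13 were expressed, from the antifungal *Mtk* (172 and 142) and *Drs* (122 and 65.9) through *DptA* (9.24 and 34.4) and *AttA* (16.2 and 21.8) to *CecC* (0 and 1.32). Of 7 Turandot genes, which encode secreted stress proteins, *TotA* alone was expressed, at 208 and 222, and *TotX* and *TotZ* were listed at 0 in both libraries.

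Genes of other stages were mostly under the cutoff. Of 14 segmentation genes of the early embryo, 3 were expressed, *Kr* (5.41 and 5.48), *odd* (4.54 and 5.22) and *kni* (2.35 and 2.29), each of which is also used later in development. *nullo*, a gene of the cellularizing embryo, was listed at 0 in both libraries. Of 11 phototransduction genes, 2 were expressed. These were *Rh6* (6.48 and 5.95), a rhodopsin of the larval eye as well as of the adult retina, and *Arr1* (5.05 and 4.54), which switches rhodopsins off. *Rh5*, the other rhodopsin of the larval eye, followed at 1.49 and 1.14, while *ninaE*, the main rhodopsin of the adult eye, was at 0.353 and 0.0861 and *Rh2* and *Rh3* were listed at 0.

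Heterochromatin proteins that the study is about were expressed in wildtype, and for *Pof* no usable estimate was given. *Su(var)205*, which encodes HP1a, had 125 and 137 FPKM, from 752 and 844 implied fragments. It was 3.43 and 3.40 times its paralog *HP1c* (36.6 and 40.4) and 4.74 and 5.54 times *HP1b* (26.5 and 24.8). The H3K9 methyltransferases were lower, *egg* at 6.50 and 6.72 and *Su(var)3-9* at 7.99 and 8.47. The estimate of *Pof*, the protein that binds chromosome 4, failed, with listed values of 44.3 and 53.5. Of the 13 genes measured, the histone variant *His2Av* was the highest (190 and 171), *HP4* had 41.4 and 36.3, and *rhi*, the germline HP1, was the lowest (0.54 and 0.703).

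By chromosome arm, the 5 large arms had similar levels and chromosome 4 had a higher median than these arms. The median FPKM over protein-coding genes was 7.86 on X, 9.28 on 2L, 9.10 on 2R, 8.62 on 3L and 8.61 on 3R, and between 76.8% and 79.5% of their genes were expressed. On chromosome 4, which is largely heterochromatic, 67 of 74 genes (90.5%) were expressed, and the median over all 74 was 21.4. Its genes were 0.58% of the protein-coding genes and held 0.59% and 0.57% of the protein-coding FPKM. Genes were not tested between arms, since they are not replicates. The 54 genes on the heterochromatin scaffolds of the large arms had a median of 15.2, with 45 expressed, the 49 genes on unplaced scaffolds had a median of 36.4, with 40 expressed, and none of the 6 genes measured on the Y scaffold passed the cutoff. The most abundant protein-coding gene was *RpS28b* on X, *CG34166* on 2L, *RpL41* on 2R, *Sgs7* on 3L, *Obp99b* on 3R and *RpS3A* (1640 and 1652 FPKM) on chromosome 4.

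**Figure D4:**
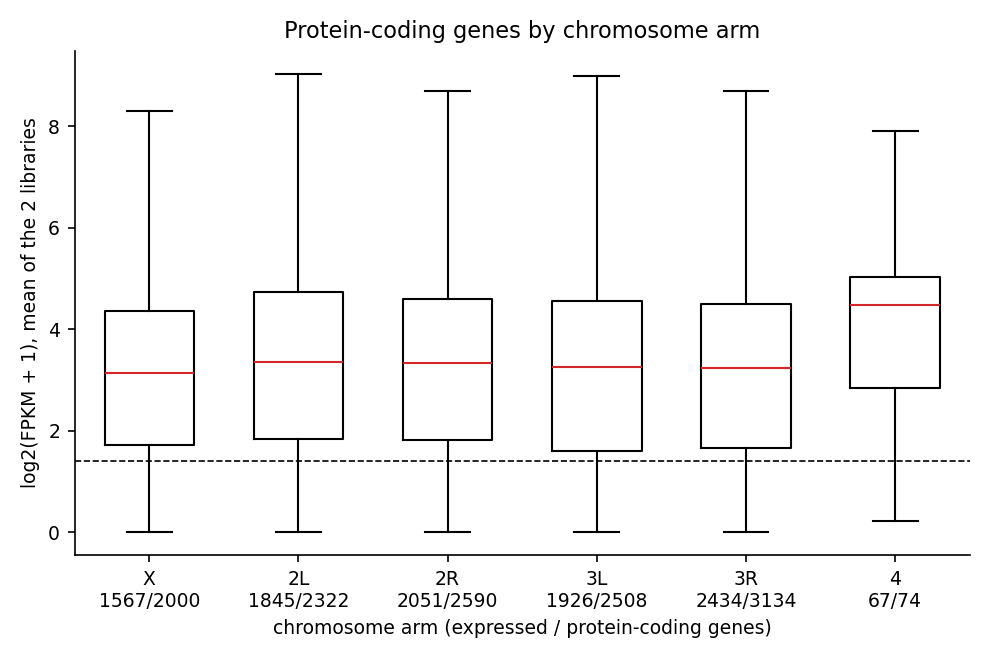
Distribution of log2(FPKM + 1), the mean of the 2 wildtype libraries, over the protein-coding genes of each chromosome arm, with the number expressed and the number measured under each arm. Boxes span the quartiles, red lines are medians, whiskers reach the farthest gene within 1.5 times the box height, and the dashed line is the cutoff of 1.4. The chromosome 4 box (67 of 74 genes expressed) lies higher than those of the 5 large arms.

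Noncoding RNAs had the highest FPKM of all. The 2 copies of the 7SL RNA of the signal recognition particle (*7SLRNA:CR32864* and *7SLRNA:CR42652*) each had 941437 and 909489 FPKM. Their values are the same to the last digit, so the copies were not told apart. Together they took 88.5% and 90.3% of the fragments on noncoding transcripts. *snRNA:7SKa*, listed over a short locus of 3R (3300565 to 3300674), had 302230 and 290985 FPKM, from 7534 and 7436 fragments. *Lsp2*, at 9321 and 7758 FPKM, had 159297 and 135845, so FPKM of very short RNAs are not comparable with those of messenger RNAs. Apart from small nucleolar RNAs, the other 5 of the 8 highest noncoding genes were copies of the U2 spliceosomal RNA, from *snRNA:U2:34ABa* (112272 and 77547) to *snRNA:U2:14B* (42508 and 29708). The next was *RNaseP:RNA* (18985 and 18357), which trims transfer RNA. *snRNA:U4:25F* and *snRNA:U7* were listed at 0. Of 216 small nucleolar RNAs, most of which guide the modification of ribosomal RNA, 177 were expressed, with *snoRNA:U3:54Aa* the highest at 124311 and 87735.

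The 2 libraries were close for most genes. The correlation between the libraries over the 10224 expressed genes was 0.954 for log2(FPKM + 1) (Pearson) and 0.956 for FPKM (Spearman), as a description across genes, which do not stand for replicates. With replicate 2 over replicate 1, 730 genes (7.14%) were past 1.5-fold, 484 of them higher (4.73%) and 246 lower (2.41%) in replicate 2. This fold was taken on FPKM + 1, and it carries no test, since it sets 1 library against 1 library of the same group. The median log2 ratio was 0.06, and 61.6% of expressed genes were higher in replicate 2. The share past 1.5-fold followed the number of fragments. It was 49.2% of the 260 genes with up to 20 fragments in both libraries together, 18.2% between 20 and 100, 4.21% between 100 and 1000, 2.22% between 1000 and 10000, and 0 of 171 above that.

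**Figure D5:**
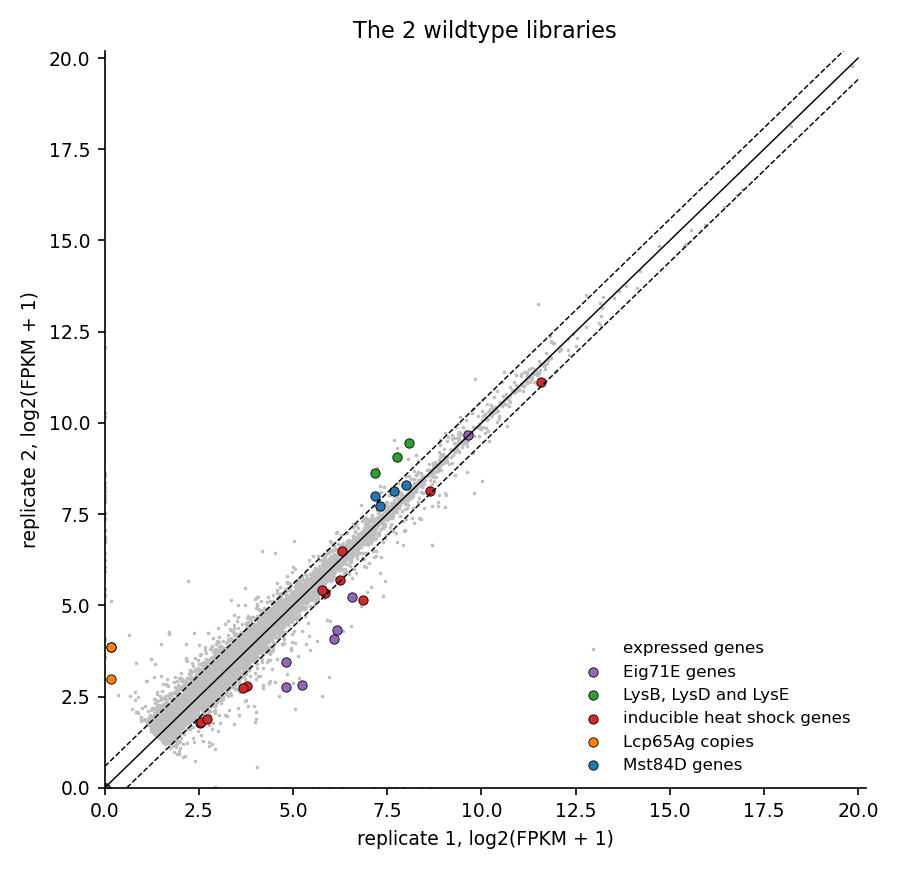
log2(FPKM + 1) of replicate 2 (y axis) against replicate 1 (x axis) for each expressed gene (grey) and for 5 gene groups (coloured, members under the cutoff included), with the line of equal values and dashed lines at 1.5-fold. *LysB*, *LysD* and *LysE* and the *Lcp65Ag* copies lie above the upper line, and 6 *Eig71E* genes below the lower one.

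Some groups of neighbouring or related genes differed together between the libraries. The *Eig71E* genes, a cluster on 3L that ecdysone induces in the salivary gland, split. *Eig71Ee*, which encodes a glue component, had 802 and 810 FPKM, but *Eig71Ea* (94.1 and 36.4), *Eig71Eb* (70.9 and 19.0), *Eig71Ed* (66.6 and 15.8) and 3 more were lower in replicate 2, each by more than 1.5-fold (6 of 7 expressed, against 2.41% of all genes). The 4 others, *Eig71Eh* to *Eig71Ek*, were listed at 0, as was *ng4*. The new glue genes of the same list went the other way, with *ng3* at 154 and 234 FPKM, and 3 of 3 expressed were higher in replicate 2 by more than 1.5-fold.

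The lysozyme genes *LysB*, *LysD* and *LysE*, neighbours on 3L, summed to 630 and 1627 FPKM, 2.58 times higher in replicate 2. They are alike in sequence, so that their separate values are less certain than their sum. *LysS* was at 688 and 716, and the Jonah proteases summed to 23832 and 28200, 1.18 times higher. Among larval cuticle genes, the copies *Lcp65Ag1* (0.132 and 13.4 FPKM), *Lcp65Ag2* and *Lcp65Ag3*, named here after their values were seen, summed to 1 and 92.7 implied fragments, whereas the abundant *Lcp4* had 5041 and 5000.

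Of the 12 heat shock genes of the list, 11 were lower in replicate 2, and 6 by more than 1.5-fold (against 2.41% of all genes). These were *Hsp22*, at 115 and 34.4 FPKM, and the 5 *Hsp70* copies of the list, which are near-identical and do not count as separate cases. With *Hsp70Bbb*, which is outside the list, the copies were lower by 0.75 to 1.00 on the log2 scale. *Hsc70-4*, which is not heat inducible, was 2109 and 2099. Of the 7 genes measured in the constitutive chaperone list, which holds *Hsc70-4*, 5 were lower in replicate 2 and none by more than 1.5-fold. These 7 genes summed to 3768 and 3552 FPKM. The antimicrobial peptide genes as a whole summed to 349 and 333 FPKM. Within them 9 of 10 attacins, diptericins and cecropins were higher in replicate 2, against 61.6% of all expressed genes. These 10 genes summed to 51.2 and 113 FPKM, from 188 and 375 implied fragments, while *Mtk* (172 and 142) and *Drs* (122 and 65.9) were lower. The cecropins rested on few fragments, such as 2 and 6.5 for *CecA1*. *CecC*, with 0 and 2 fragments, was under the cutoff. The 6 U2 RNA copies were each lower by 0.52 to 0.54 on the log2 scale, none by more than 1.5-fold. As copies of the same RNA, they do not count as separate cases.

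Among expressed protein-coding genes with a mean FPKM above 10, *Slh* differed most in the upward direction, at 0.134 and 34.0. Its 2 transcripts share a locus on 2L (2490205 to 2492666) with 2 transcripts that have no gene in the reference, which had 38.2 and 4.15 FPKM. The sum over the locus was 38.3 and 38.1, so that the total stayed level while its division among overlapping transcripts changed. After it came *Drsl1* (3.64 and 49.7, from 1 and 14 fragments), *Dnali1* (2.26 and 18.1), *cin* (4.17 and 17.9, but 18.56 and 20.23 with a transcript without a gene over its locus), *DptA*, *CG6839*, *CG11597* and *LysE*. In the downward direction *GstD2*, a glutathione transferase, was first at 53.5 and 4.75. It was followed by *CG9628* (32.5 and 3.45), *Eig71Eg* (36.5 and 6.03), *CG5697* (35.0 and 7.04), *Mul1* (23.9 and 4.75), *CG4151* (92.1 and 20.6), *Eig71Ef* (27.0 and 5.79) and *CG14341* (79.8 and 18.7, or 141 and 26.2 with a transcript without a gene). *CG9628* went from 203 to 23.2 fragments while *RecQ5*, whose locus overlaps it, went from 260 to 450, and their sum was 463 and 473. Other pairs did not stay level. The fragments of *CG11597* with *CG5946* summed to 314 and 708, those of *CG6839* with *CG18223* to 196 and 502, those of *cin* with *CG13377* to 294 and 549, and those of *LysE* with *mwh* to 473 and 1274. In the downward direction, *Hsp22* with *CG4456* summed to 892 and 373.

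Genes in overlapping loci made up 362 of the 730 genes past 1.5-fold. The loci of 37.4% of the expressed genes overlapped that of another gene, and 9.47% of these were past 1.5-fold, against 5.75% of those with no overlap. A pair that moved in opposite directions, *spn-A* (380 and 155 fragments) and *Jasper* (146 and 392), chosen after their values were seen, summed to 526 and 546. When fragments were summed over each cluster of overlapping loci and scaled to library size, 337 of the 730 genes lay in a cluster past 1.5-fold. The fold of a cluster was taken on these scaled fragments + 1, without scaling to length. It thus differs in unit from the fold on FPKM + 1, and the fall from 730 to 337 does not measure the effect of overlap alone. A gene whose locus overlapped no other transcript formed its own cluster, and 344 of the 730 were such genes. Within genes, 2908 expressed protein-coding genes had more than 1 transcript. The leading transcript held a median of 59.6% of the gene's FPKM, and it was the same transcript in both libraries for 2088 of them (71.8%), so the sum per gene was used for every level given.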

How the data were processed

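RNA-seq values of the 2 wildtype libraries were used. The authors deposited, for each library, FPKM values with lower and upper bounds and a status for every RefSeq transcript, calculated with Cufflinks. The submitters' processing notes also name TopHat. The sources used here give no versions, strand use or multi-read settings. Locus coordinates are of genome Release 5. Replicates were not pooled, and the 2 mutant files were not used.

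Transcripts were named from RefSeq (Release 6, names only), which gave a gene for 21388 of the 22608 listed, and FPKM were summed per gene over its transcripts of status OK in both libraries. This left out 1220 transcripts with no gene and 497 genes without a usable estimate. Where the bounds lie 2 counting errors from the FPKM, the implied number of fragments follows. It was whole, within 0.02, for 95.7% and 95.5% of transcripts alone in their locus with under 200 fragments. Depth was 7505528 and 7656033 implied fragments, and the bounds cover counting error only. A pseudocount of 1 was added before logarithms.

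The 47 gene lists and the members were chosen with earlier results of these data known, and 3 list entries were corrected after the files were read. Genes named are the 30 highest protein-coding genes, the 4 highest, the lowest and those at 0 in each list, the 8 most different in each direction between libraries above a mean FPKM of 10, the 8 highest noncoding genes other than small nucleolar RNAs, the highest on each arm, and *Su(var)205*, *Pof*, *egg* and *Su(var)3-9*. Lists of over 20 genes, and those that share members with another list, are given by their leading genes, and other genes were chosen after their values were seen. 6 list names matched no transcript. No test was run, because 1 group of 2 libraries holds no contrast. Alternatives were other statuses, cutoffs of 1 and 5 FPKM, pseudocounts of 0.1 and 5, each library alone, the highest transcript, implied fragments as weight, rescaling, a 2-fold limit and, chosen after seeing the data, clusters of overlapping loci. Steps were tested on simulated data. Python 3.11.15, pandas 2.3.3, numpy 2.4.6, scipy 1.17.1 and matplotlib 3.10.9 were used.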

Additional observations from a re-analysis of the deposited data

Results flagged for a closer look

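Outside the values used above, 791 transcripts with no gene in the reference had more than 3 implied fragments in both libraries, which is above what a count of 0 allows. The most abundant of them had 2287 and 2150 FPKM, on 2L, over the locus of *RpL5*. A further 27 transcripts whose estimate failed or had too little data in a library were listed with a mean FPKM above 100. Among them were those of *RpS15* (1926 and 1883) and *Argk1*, arginine kinase (1230 and 1300), whose levels enter no count above.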

How the results depend on the processing

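The count of expressed genes (10224) was between 8309 and 10760 under every alternative tried, and 10146 to 10263 from either library alone. The share of the 100 highest genes (46.8%) was 45.9% with transcripts of any status, 48.7% with the highest transcript of a gene, 86.1% with noncoding genes in the total and 30.6% by implied fragments, and 46.5% to 47.2% from either library alone. More than 50% of the measured members were expressed in 37 of 47 lists, and in 36 to 38 under the alternatives. The number of genes past 1.5-fold between the libraries (730) was 339 with a pseudocount of 5, 225 at 2-fold, 475 of 8257 clusters when fragments were summed per cluster of overlapping loci, and 344 of 6079 genes whose locus overlapped no other transcript. It was 948 with a pseudocount of 0.1, 684 after rescaling, 987 with no filter on low values and 503 above a mean FPKM of 5. Of the 730 genes, 337 lay in a cluster of loci that was itself past 1.5-fold, where a gene with no overlap formed its own cluster. The folds of clusters were taken on fragments scaled to library size + 1, without scaling to length, so they differ in unit from the fold on FPKM + 1. By implied fragments instead of FPKM, the share of 21 of 45 lists was more than 1.5 times higher and that of 14 more than 1.5 times lower. No paired analysis was possible because the libraries form 1 group and no contrast was tested. With 2 libraries an SD rests on 1 difference. Levels near the cutoff rest on about 20 fragments, genes at 0 may lie under this depth, and FPKM shares weight short transcripts heavily.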

Other observations

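Genes outside the lists with a known role also stood high, and are named after their values were seen. *Arc1*, a capsid-like protein of neurons and other tissues, had 1387 and 1278 FPKM. *cer*, an inhibitor of cysteine proteases, had 1485 and 1400. *MtnA*, a metallothionein that binds copper, differed between the libraries, at 884 and 1343. *Drsl2*, a gene of the drosomycin family, had 1026 and 340, the opposite direction to *Drsl1* (3.64 and 49.7), which rests on 15 fragments in all.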
